A study of Mus musculus with 12 samples.

Results

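The nucleolar ribosome biogenesis factors are a set of 40 genes named from their known roles. The set was chosen with earlier results of these data known. All 40 were found among the 24454 genes of the deposited expression table, and all 40 passed the filter of a mean of at least 10 normalized counts over the 12 libraries, as did 11476 genes in all. The libraries came from AML blasts of mice. Fetal liver cells of wildtype (WT) or STAT3β-deficient (Δβ) mice, which lack the shorter splice isoform of the transcription factor STAT3, were transformed with a retrovirus that carries the MLL-AF9 fusion oncogene and a Venus reporter, and were transplanted into male NSG mice of 6 to 8 weeks. NSG mice lack mature lymphocytes, and their own myeloid cells remain. When the animals were diseased, Venus+ blasts were sorted from spleen (SP) and bone marrow (BM), and polyadenylated RNA was sequenced in 3 replicates per genotype and organ: WT SP, Δβ SP, WT BM and Δβ BM. All 4 groups share the MLL-AF9 oncogene, the Venus sort and the NSG host. The labels do not say which libraries came from the same animal or the same transformed culture, so the p-values measure the spread between these samples. The main fit took the 12 libraries as independent in every comparison, although same-numbered Δβ SP and Δβ BM libraries deviated together, as described below.

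Ribosomes are made in the nucleolus. RNA polymerase I copies the ribosomal RNA genes into a long precursor, small nucleolar ribonucleoproteins (snoRNPs) guide its chemical modification, and a large group of assembly factors folds and cuts it into the RNAs of the small (40S) and the large (60S) subunit. In blood cells, as in other tissues, the genes of this pathway are expressed at high levels in growing cells and are known targets of the transcription factor Myc. Npm1, which is mutated in a share of human AML, is a member of the set.

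The members fall into 6 roles. There are 2 subunits of RNA polymerase I (Polr1a, Polr1b), 3 proteins of the box C/D snoRNPs (Fbl, Nop56, Nop58), 4 of the box H/ACA snoRNPs (Dkc1, Gar1, Nhp2, Nop10), 14 factors of the small subunit processome and the pre-40S particle, 11 of pre-60S assembly, and 6 nucleolar chaperones and regulators (Ncl, Npm1, Npm3, Nolc1, Ddx21, Mybbp1a). Some of them also carry snoRNA genes within their own gene body. In the GENCODE annotation (release 21, GRCm38), 7 of the 40 members (17.5%) held a snoRNA gene on the same strand, compared with 248 of the 11476 genes tested (2.16%). The hosts were Nop56, Nop58, Dkc1, Wdr43, Tsr1, Gnl3 and Ncl, with 21 snoRNA genes between them. The box C/D snoRNAs are the RNAs that Fbl, Nop56 and Nop58 bind, so 5 of those encoded inside members are shown here, 5′ to 3′ and as DNA letters, with the C box letters TGATGA and the D box letters CTGA in capitals. Of the 21, 8 held both sets of letters within 15 bases of their ends.
Snord110, in Nop56, chr2:130275506-130275573, plus strand: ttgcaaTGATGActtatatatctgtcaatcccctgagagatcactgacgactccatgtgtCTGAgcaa
Snord11, in Nop58, chr1:59704790-59704873, plus strand: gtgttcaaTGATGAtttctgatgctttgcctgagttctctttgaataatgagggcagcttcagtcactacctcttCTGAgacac
Snord92, in Wdr43, chr17:71631281-71631365, plus strand: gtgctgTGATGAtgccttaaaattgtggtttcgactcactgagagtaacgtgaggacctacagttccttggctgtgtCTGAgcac
Snord69, in Gnl3, chr14:31014287-31014366, minus strand: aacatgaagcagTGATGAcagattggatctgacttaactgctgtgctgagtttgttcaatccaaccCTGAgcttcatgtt
Snord82, in Ncl, chr1:86356261-86356330, minus strand: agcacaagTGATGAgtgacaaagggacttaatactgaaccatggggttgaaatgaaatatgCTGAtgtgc
The snoRNAs themselves have no poly(A) tail. Of the 21, 12 had a row in the table, with means over the libraries of 0.355 to 16.7 normalized counts, so their levels were not compared between the groups.

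The promoters of the members were searched for the E-box CACGTG, the sequence to which Myc binds with its partner Max, in RefSeq windows of 300 bases, from 250 before to 50 after the start of the gene (GRCm38). A window was at hand for 36 of the 40 members, all except Fbl, Rrp12, Bop1 and Npm1. It held the letters, which read the same on both strands, in 8 members (22.2%), namely Imp4, Mybbp1a, Nop2, Pes1, Tsr1, Utp18, Utp20 and Wdr43. Over the 9275 genes tested that had a window it was 12%, and over all 27025 windows 8.09%. The 3 members in which the letters lay wholly before the start of the gene are shown with the bases around them, the E-box in capitals.
Imp4, chr1:34439688-34439733, plus strand: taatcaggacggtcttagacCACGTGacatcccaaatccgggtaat
Nop2, chr6:125131803-125131848, plus strand: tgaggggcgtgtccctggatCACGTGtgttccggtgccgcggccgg
Utp18, chr11:93885761-93885806, minus strand: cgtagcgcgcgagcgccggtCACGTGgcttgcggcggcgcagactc
Other letters were found at shares nearer to those of all genes tested. By the same count, the GC box GGGCGG was found for 75% of the members with a window and 68.6% of the genes tested with a window. The ETS core CCGGAAG was found for 27.8% and 21.5%, CCAAT for 38.9% and 43.6%, and TATAAA for 5.56% and 8.38%, each on either strand. These are matches of letters and were not tested as binding sites.

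Each library held 9001051 to 13859727 reads on genes. The 11 markers of leukemic myeloid progenitors were all above the filter, and the summed level of the 20 mature myeloid markers was 285925, 396407 and 161059 normalized counts in WT SP and 113669 to 139174 in Δβ SP. WT SP replicate 3 thus stood apart from WT SP replicates 1 and 2. In BM the same sum was 175762, 167010 and 444621 in WT and 268794, 170142 and 132760 in Δβ. Stat3 counts, which hold both isoforms and so do not check the genotype, ranged from 2714 to 4429.8 over the 6 WT libraries and from 2349 to 3236 over the 6 Δβ libraries. Of the 12 erythroid markers, the 4 hemoglobin genes were listed at 0 throughout, 6 had at least 3 reads in a library, and 1 passed the filter. Their summed level was 656, 815 and 2034 normalized counts in WT SP and 1128 to 1618 in Δβ SP. In BM it was 1340 to 1548 in WT and 1397 to 1570 in Δβ.

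**Figure D1:**
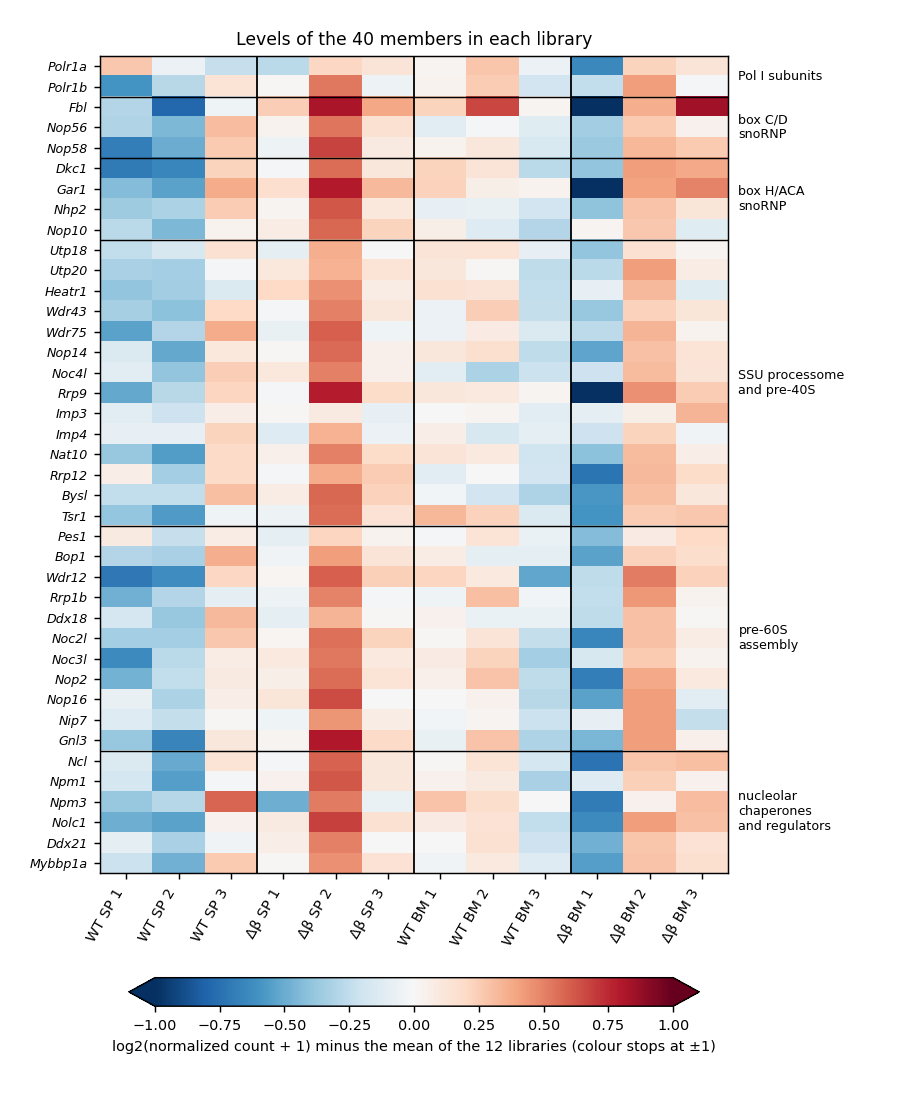
Each row is a member, grouped by role, and each column a library. Colour shows the log2(normalized count + 1) minus the gene's mean over the 12 libraries, and stops at 1 in either direction. Δβ SP replicate 2 is above the mean in all 40 members, WT SP replicate 2 in 0, and Δβ BM replicate 1 in 1.

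The members moved together from library to library. In Δβ SP replicate 2 all 40 members lay above their mean over the 12 libraries, and 35 of the 40 had their highest value there. In Δβ BM replicate 2 all 40 also lay above the mean. The lowest value was found in Δβ BM replicate 1 for 21 members, in WT SP replicate 2 for 11 and in WT SP replicate 1 for 8, and in no other library. The mean log2 deviation of the 40 members was -0.31, -0.38 and 0.15 in the WT SP libraries, 0.00374, 0.52 and 0.11 in Δβ SP, 0.05, 0.10 and -0.18 in WT BM, and -0.51, 0.31 and 0.14 in Δβ BM. As means ± SD (n = 3) this was -0.18 ± 0.29 for WT SP against 0.21 ± 0.27 for Δβ SP, and -0.01 ± 0.15 for WT BM against -0.02 ± 0.43 for Δβ BM, so the groups overlapped. The pattern was not particular to the members. The 5 lists of further genes of the pathway, described below, were at 0.16 to 0.38 in Δβ SP replicate 2 and at -0.39 to -0.07 in Δβ BM replicate 1. A list of 40 genes of DNA replication and mitosis was at 0.20 and -0.12 in these libraries. The mature myeloid markers, taken in the same way, were at 1.59, 1.35 and -0.60 in WT SP, -0.53, -0.28 and -0.49 in Δβ SP, -0.45, -0.51 and 0.64 in WT BM, and 0.39, -0.13 and -0.999 in Δβ BM. The 2 WT SP libraries with low member levels were those with high mature myeloid markers, and the part of these markers in the result was not tested. The 11 progenitor markers were at -1.12, -0.20 and 0.56 in the WT SP libraries and between -0.12 and 0.26 in the other 9. Of the 11, 9 had a higher fitted mean in Δβ SP, with a median of 0.46 and 0 called. Of the 20 mature myeloid markers, 19 were lower in Δβ SP, with a median of -1.12. Limma and edgeR called 0 of them and DESeq2 called 5, beside 3.99% of all genes. Of the 13 tissue macrophage markers 5 passed the filter, and 4 of these were lower in Δβ SP, with 2 called by DESeq2. The summed level of the 13 was 9364, 7123 and 4126 normalized counts in WT SP and 3710 to 5266 in Δβ SP. The summed level of the 11 T and NK cell markers, of which 3 passed the filter, was 865 normalized counts in WT SP replicate 3, 723 in Δβ BM replicate 1, where the members were low, and 41.0 to 378 in the other 10 libraries. The part of the macrophage, T and NK cell markers in the result was not tested either. In sorted bulk samples, fewer cells of a type and less RNA per cell cannot be told apart.

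**Figure D2:**
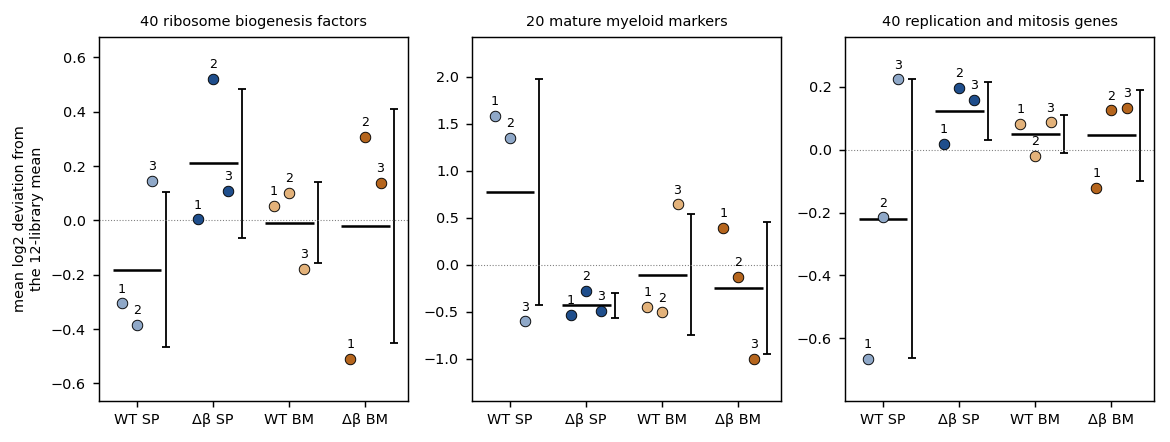
Points are libraries, numbered by replicate, and give the log2 difference from the mean of the 12 libraries, averaged over the 40 members, the 20 mature myeloid markers and 40 genes of DNA replication and mitosis. Lines are group means and bars ± SD (n = 3). WT SP replicates 1 and 2 are low for the members and high for the mature myeloid markers, and WT SP replicate 3 lies with the Δβ SP libraries in both.

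The first comparison asked whether blasts that lack STAT3β differ from WT blasts in the spleen. All 40 members had a higher fitted mean in Δβ than in WT SP, and the log2 fold change had a median of 0.40, beside -0.01 over the 11476 genes tested. The single differences were small against the spread between replicates, and none of the 40 passed an adjusted p of 0.05 in limma, where 0.105% of all genes tested did. The smallest adjusted p was 0.225. At an unadjusted p under 0.05, 8 members were higher and 0 lower, which is 20% of the set, beside 5.93% of all genes tested that were higher. In 9 members, 22.5% of the set, every Δβ SP library lay above every WT SP library, as in 7.92% of all genes tested. Since the set was chosen with earlier results of these data known, these shares are not those of an independent list. DESeq2 and edgeR on the recovered whole reads also called 0 members, with a smallest adjusted p of 0.0603 and 0.197, beside 3.99% and 0.0349% of all genes. The size of the difference rested on which libraries were used. Without WT SP replicate 3 the median was 0.57 and 7 members passed in limma, all higher in Δβ (Nop10, Wdr12, Dkc1, Heatr1, Nop58, Nat10 and Nop56), but so did 16.4% of all genes tested, 539 higher and 1345 lower. Without both WT SP replicates 1 and 2, which leaves 1 WT SP library that is taken to vary like the others, the median was 0.06 and 24 of the 40 members were above 0. Without Δβ SP replicate 2 it was 0.23, with 36 above 0.

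**Figure D3:**
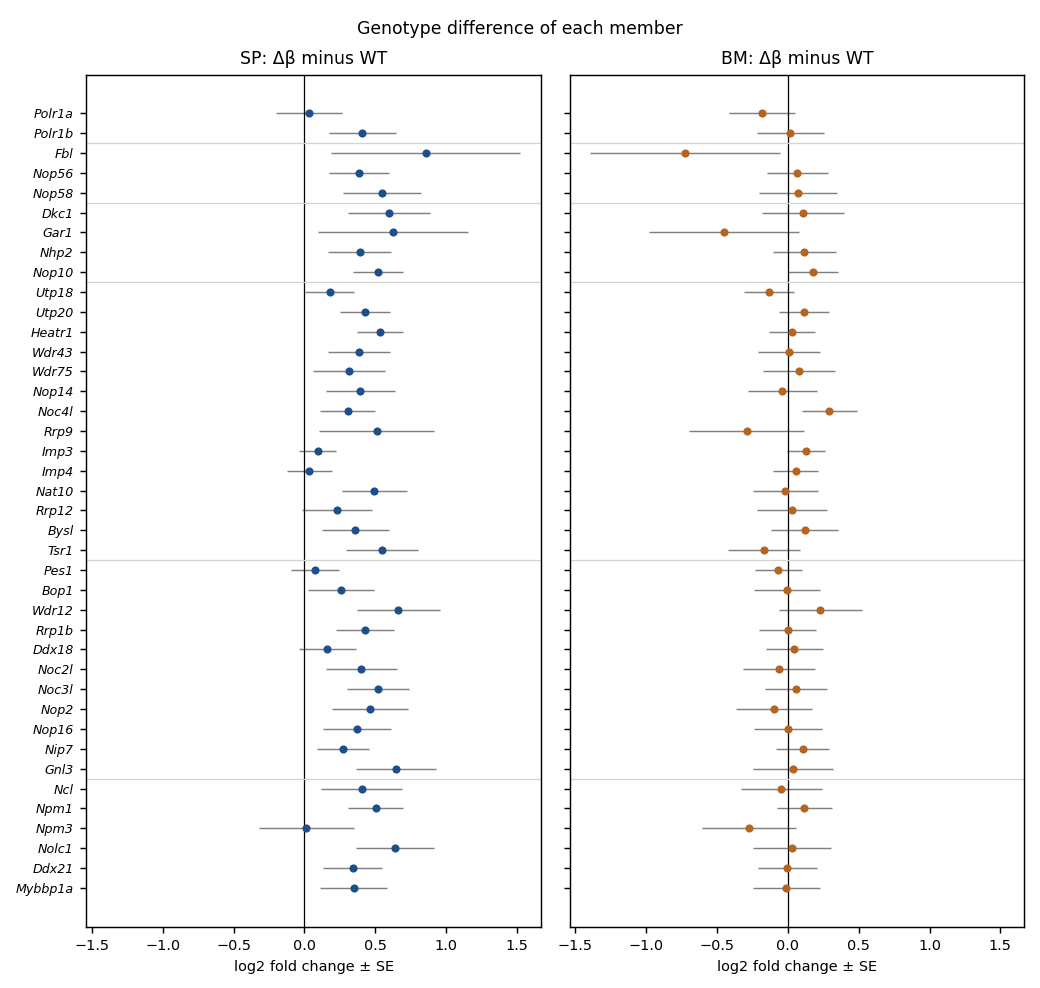
Points are the log2 fold changes of Δβ minus WT blasts from limma, with bars of ± SE, for each member in SP and BM, ordered by role. In SP the 40 members lie between 0.01 and 0.86, and in BM between -0.73 and 0.29, with 23 of them above 0.

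Within the small subunit processome, Heatr1, a scaffold protein that also supports transcription by RNA polymerase I, had the smallest p. Its normalized counts were 1012, 1046 and 1205 in WT SP and 1524, 1820.2 and 1397 in Δβ SP. All 3 Δβ libraries were above the 3 WT libraries, with a log2 fold change of 0.53 ± 0.16 (SE) and an adjusted p of 0.225 (limma). In BM the counts of Heatr1 were 1481, 1449.9 and 1119.9 in WT and 1259, 1666 and 1221 in Δβ, so the groups overlapped. Utp20, a long repeat protein of the same particle, had 656, 652 and 809.8 normalized counts in WT SP and 887, 1046 and 904 in Δβ SP. These did not overlap either (0.43 ± 0.18, adjusted p = 0.309). In BM, Utp20 had 891, 831 and 689 in WT and 683, 1103 and 865 in Δβ, which overlapped. Over the 14 members of this role the log2 fold change in SP ran from 0.03 for Imp4 to 0.55 for Tsr1, with a median of 0.37, and 2 of the 14 were at an unadjusted p under 0.05, beside the 5.93% of all genes.

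Tsr1, a factor of the late pre-40S particle, had 398, 352 and 505 normalized counts in WT SP and 504, 766 and 575 in Δβ SP, where WT SP replicate 3 and Δβ SP replicate 1 had nearly the same value. The log2 fold change was 0.55 ± 0.26 (adjusted p = 0.344). In BM, Tsr1 had 657, 613 and 471 in WT and 344, 621 and 627 in Δβ. Transcripts of Tsr1 share 31.1% of their runs of 50 bases with other annotated genes, the most with Srr. How reads over these runs were assigned was not tested. Imp3, which bridges the U3 snoRNA and the pre-ribosomal RNA, was among the steadiest members, with 417, 391 and 474 normalized counts in WT SP, 456, 482 and 427 in Δβ SP, 452, 461 and 420.0 in WT BM, and 425, 469.6 and 572 in the Δβ BM libraries. Noc4l, which acts with Nop14 in the same particle, had 457, 375 and 585 in WT SP and 529, 698 and 511 in Δβ SP. Its counts in BM were 457, 397 and 424 in WT and 427, 614 and 539 in Δβ, where its log2 fold change of 0.29 ± 0.19 was the highest of the 40 members in that organ. Bysl, needed for late 40S maturation, had 431, 431 and 630.2 in WT SP and 539, 761 and 601 in Δβ SP, and 502, 448 and 413 in WT BM and 341, 629.6 and 553 in Δβ BM. WT and Δβ libraries overlapped for Noc4l and for Bysl in both organs.

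Among the snoRNP proteins, all 7 had a positive fold change in SP. Nop10, the smallest protein of the box H/ACA particle, had 419, 369.9 and 519 normalized counts in WT SP and 532, 755 and 590.4 in Δβ SP. The groups did not overlap (0.52 ± 0.18, adjusted p = 0.256), although the highest WT and the lowest Δβ library were close. Its counts in BM were 528, 462 and 414 in WT and 516, 609.8 and 464 in Δβ. Dkc1, the pseudouridine synthase of the particle, had 885, 919.9 and 1687 in WT SP and 1435, 2132 and 1565 in Δβ SP. WT SP replicate 3 was above 2 of the 3 Δβ libraries (0.60 ± 0.29, adjusted p = 0.358). In BM, Dkc1 had 1692, 1579 and 1198 in WT and 1102, 1932 and 1880.0 in Δβ. Gar1, another core protein of the particle, had 376, 351 and 659 in WT SP and 572, 878 and 637 in Δβ SP, with the same overlap.

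Nop56, a core protein of the box C/D snoRNPs, had 985, 887 and 1498 normalized counts in WT SP and 1238, 1751 and 1344 in Δβ SP. WT SP replicate 3 exceeded 2 Δβ libraries, and the log2 fold change was 0.38 ± 0.21 (adjusted p = 0.406). Its counts in BM were 1121, 1202 and 1116 in WT and 950.2, 1455 and 1250.2 in Δβ. Fbl, fibrillarin, the methyltransferase of these particles, had 121, 85.8 and 144 in WT SP and 176, 262 and 194 in Δβ SP, which did not overlap. Its log2 fold change of 0.86 ± 0.67 was the largest of the 40 in SP and also the least precise, with an adjusted p of 0.524. The standard errors of the other members in SP were 0.13 to 0.53. Of the runs of 50 bases in Fbl transcripts, 70.2% also occur in other annotated genes, the highest share among the members, which was followed by Ddx18 with 61.4%, Npm3 with 36.1%, Npm1 with 31.9%, Tsr1 with the share given above and Nop56 with 30.3%.

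In pre-60S assembly the 11 members had log2 fold changes in SP of 0.07 (Pes1) to 0.66 (Wdr12), with a median of 0.40, and 3 were at an unadjusted p under 0.05 (Noc3l, Wdr12 and Gnl3), beside the same 5.93%. Pes1, Bop1 and Wdr12 form a complex of 3 proteins, and in SP they were at 0.07 ± 0.17, 0.26 ± 0.23 and 0.66 ± 0.29. The differences among the 3 were not tested. Noc2l, which partners Noc3l in pre-60S particles, had 1258, 1256 and 1913 normalized counts in WT SP and 1614, 2325 and 1855 in Δβ SP. In BM, Noc2l had 1605, 1737 and 1350.5 in WT and 1013, 1954 and 1673 in Δβ. Rrp1b, which also binds a phosphatase in the nucleolus, had 552, 628 and 725 in WT SP and 744, 1084 and 759 in Δβ SP, without overlap (0.43 ± 0.20, adjusted p = 0.352). The WT BM libraries were at 747, 947 and 755 and the Δβ BM libraries at 650.2, 1039.6 and 788. Nop16, a small protein of early pre-60S particles, had 496, 418 and 545 in WT SP, 568, 820.0 and 522 in Δβ SP, 524, 536 and 430.0 in WT BM, and 359, 695 and 485 in Δβ BM. WT and Δβ overlapped for Noc2l and Nop16 in both organs.

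Npm1, nucleophosmin, a nucleolar chaperone, had 2923, 2257 and 3281 normalized counts in WT SP and 3400.1, 5066 and 3571 in Δβ SP. The Δβ libraries were above the WT libraries by a narrow gap (0.50 ± 0.20, adjusted p = 0.288). In BM its counts were 3405, 3510.3 and 2629 in WT and 3019, 3889.8 and 3406 in Δβ (0.12 ± 0.20). Ncl, nucleolin, which binds the ribosomal RNA precursor, had 12259, 9536 and 14849.9 in WT SP and 13439, 20390.2 and 14648 in Δβ SP, where WT SP replicate 3 was above 2 Δβ libraries (0.40 ± 0.29, adjusted p = 0.494). In BM, Ncl had 13682, 14892 and 12000.4 in WT and 8102, 16433 and 16714 in Δβ. The other members of this role in SP were at 0.64 ± 0.28 for Nolc1, a chaperone of snoRNPs, 0.34 ± 0.21 for the RNA helicase Ddx21, 0.35 ± 0.24 for Mybbp1a, and 0.01 ± 0.33 for Npm3, a partner of Npm1 and the lowest of the 40. The catalytic subunits of RNA polymerase I were at 0.03 ± 0.23 for Polr1a and 0.41 ± 0.24 for Polr1b, and the difference between them was not tested.

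**Figure D4:**
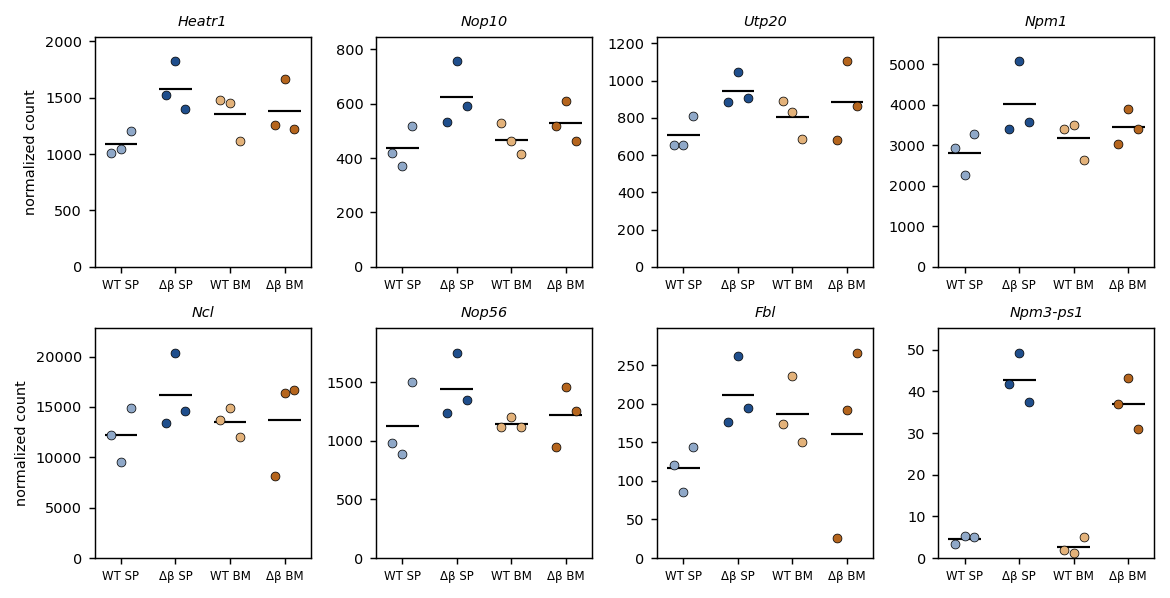
Points are normalized counts in each library, on linear axes that start at 0, with group means as lines, for 7 members and for Npm3-ps1. Heatr1, Nop10, Utp20, Npm1 and Fbl do not overlap between WT SP and Δβ SP, and Npm3-ps1 does not overlap between the genotypes in either organ.

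In BM the members did not differ between the genotypes in a common direction. The median log2 fold change of Δβ minus WT was 0.02 (-0.02 over all genes tested), 23 members were above 0 and 17 below, and 0 passed in limma, DESeq2 or edgeR (0.0697%, 0.323% and 0.0697% of all genes). No member was at an unadjusted p under 0.05 (2.59% of all genes), and in none were the groups without overlap (7.63%). The lowest fold changes were those of Fbl (-0.73 ± 0.67) and Gar1 (-0.45 ± 0.53), and both came from 1 library. Fbl had 174, 237 and 151 normalized counts in WT BM and 26.1, 192 and 266 in Δβ BM. Gar1 had 597, 528 and 521 in WT BM and 133, 672 and 718 in Δβ BM, and Rrp9, the U3 snoRNP protein, had 413, 407 and 389 in WT and 150.0, 523 and 454 in Δβ. In each of them Δβ BM replicate 1 was far below the other libraries. Without it the median over the members was 0.22 with all 40 above 0, and without Δβ BM replicate 2 it was -0.15 with 5 above 0, so the direction in BM depended on single libraries, and 0 members were called in either case.

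Δβ BM replicate 1 was lower than the mean of Δβ BM replicates 2 and 3 in all 40 members, with log2 differences of -0.04 (Nop10) to -3.07 (Fbl). Its difference from them also went with the GC content of the transcripts over all genes. The median over the genes tested was 0.18 for transcripts of up to 45% GC, 0.09 for 45 to 50%, 0.000604 for 50 to 55%, and -0.14 above 55%, each counted with its upper bound. The members were at -0.59, -0.40, -0.69 and -0.91 in the same bins, with 10, 9, 13 and 8 genes, and so lay below all genes in every bin. Fbl, Gar1 and Rrp9, the 3 that were furthest down, have 56.7%, 57.0% and 59.8% GC. Across 11204 genes Pearson's r between GC content and the deviation from the group mean was -0.20 in this library, 0.17 in Δβ BM replicate 3, and between -0.04 and 0.04 in the other 10. Over the 40 members alone r was -0.46 in this library and 0.37 and 0.44 in Δβ BM replicates 2 and 3. It was 0.48 in WT BM replicate 3 and between -0.25 and 0.19 in the remaining libraries. The deviations within a group sum to 0 for each gene, so the r of its 3 libraries are tied to each other. These are correlations across genes within a library, which are not independent replicates. The part of GC content in the low values was not tested.

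**Figure D5:**
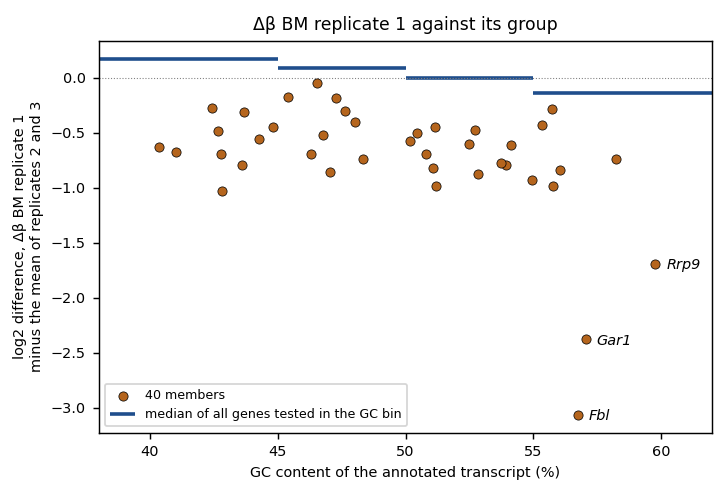
Points are the 40 members, with the GC content of the annotated transcript on the x axis and the log2 difference of Δβ BM replicate 1 from the mean of the other 2 Δβ BM libraries on the y axis. Lines give the median of all genes tested in each GC bin, drawn out to the edges of the plot in the outer bins. All members lie below 0, and Fbl, Gar1 and Rrp9 lie lowest.

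The organs were compared within each genotype, as spleen minus bone marrow. In WT blasts 36 of the 40 members were lower in SP, and their median difference was -0.16 on the log2 scale, beside -8.1e-05 over all genes tested. Of the members, 0 passed in limma and edgeR (0% of all genes by each) and in DESeq2 (0.969%), and 0 were at an unadjusted p under 0.05 (8.27%). The smallest p were those of Heatr1 (-0.30 ± 0.16), Tsr1 (-0.47 ± 0.26), Rrp1b (-0.36 ± 0.20) and Dkc1 (-0.41 ± 0.29), with adjusted p of 0.631 to 0.698. Rrp1b and Fbl were the 2 members (5% of the set) in which every WT SP library lay below every WT BM library, as in 5.8% of all genes. Without WT SP replicate 3 the median was -0.32, and without both WT SP replicates 1 and 2 it was 0.14, with 34 members above 0. In Δβ blasts 39 of the 40 were higher in SP, all except Imp3, with a median of 0.21 (0.00197 over all genes). Here too 0 were called by limma, edgeR and DESeq2 (0%, 0% and 0.0175% of all genes), 0 were at an unadjusted p under 0.05 (1.77%), and in 0 were the groups without overlap (7.42%). The smallest p belonged to Bysl (0.35 ± 0.24), Gar1 (0.77 ± 0.53), Noc2l (0.36 ± 0.25) and Nop16 (0.34 ± 0.24), all with an adjusted p of 0.99996. Without Δβ BM replicate 1 the median was -0.03, with 15 above 0. Same-numbered Δβ SP and Δβ BM libraries deviated together, and with that pairing as a block 0 members were called as well.

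The difference of the genotype effect between the organs was tested itself. The fit took all 12 libraries as independent and did not use the pairs of Δβ SP and Δβ BM libraries. The median over the members was 0.37 (-0.000252 over all genes), 38 members were above 0, and none was called by limma, edgeR or DESeq2 (0%, 0% and 0.0262% of all genes). At an unadjusted p under 0.05 there was 1 member, Heatr1 (0.50 ± 0.23, adjusted p = 0.926), which is 2.5% of the set beside 1.25% of all genes tested in that direction. Thus a larger genotype difference in SP than in BM was not shown for any member.

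Other genes of the pathway, taken from lists by role, had smaller median differences in SP than the members. Both the members and these lists were chosen with earlier results of these data known. The 13 further genes of the RNA polymerase I machinery had a median log2 fold change of 0.12, with 9 above 0. The median was 0.21 for 43 further genes of the small subunit processome and pre-40S particles (39 above 0), 0.24 for 51 of pre-60S assembly (44 above 0), 0.27 for 23 of the RNA exosome and RNase MRP (18 above 0), and 0.16 for 11 snoRNA host RNAs (8 above 0). None of these genes passed in limma or edgeR, and 2 of the 51 on the pre-60S list passed in DESeq2, a share near the 3.99% of all genes. At an unadjusted p under 0.05 there were 2, 5, 9, 4 and 2 genes in the 5 lists, all of them higher in Δβ, as were 5.93% of all genes tested. In BM the medians of the 5 lists lay between -0.10 and 0.04. A list outside the pathway, 40 genes of DNA replication and mitosis, stood at 0.37 in SP with 39 above 0 and 12 at an unadjusted p under 0.05 (30%, beside 5.93% of all genes), close to the median of the 40 members, and at 0.00468 in BM. Higher fitted means in Δβ SP were thus also found outside ribosome biogenesis. Of these 40 genes 0 were called by limma and edgeR and 2 by DESeq2, again near the 3.99% of all genes.

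Myc had 782, 805 and 1538 normalized counts in WT SP and 886, 1546 and 1440.2 in Δβ SP, and 1117, 1694 and 799.6 in WT BM and 859, 1383 and 1131 in Δβ BM. The genotypes overlapped in both organs (0.34 ± 0.34, adjusted p = 0.620 in SP). The ribosomal RNA precursor Rn45s, on which the members act, is made by RNA polymerase I and is not polyadenylated as a rule. The libraries were made from polyadenylated RNA, so the counts of this row do not measure the level of the precursor. Reads of the precursor and of the RNAs cut from it were not told apart. Rn45s had 91112, 305936 and 263276 in WT SP, against 46183, 23230 and 27073 in Δβ SP. The groups did not overlap, with a log2 fold change of -2.66 ± 0.50. The adjusted p was 0.0959 in limma, 0.0945 in edgeR and 1.34e-06 in DESeq2. In BM, Rn45s had 29805, 18712 and 39870.4 in WT and 30179, 47358 and 68516 in Δβ, which overlapped, and the fold change had the other sign (0.71 ± 0.50, adjusted p = 0.99997 in limma). Between the organs of WT blasts it was 2.79 ± 0.50, with an adjusted p of 0.357 in limma and 7.98e-07 in DESeq2. The difference of the genotype effect between the organs was -3.37 ± 0.71, with 0.926 and 0.000344 by the same tools. Rn45s took 2.48% and 2.41% of the reads in WT SP replicates 2 and 3, and 0.178% to 0.725% in the other 10 libraries. Its order among the WT SP libraries was not that of the members, since replicates 2 and 3 were high in Rn45s and replicates 1 and 2 were low in the members.

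A processed pseudogene of the member Npm3 had low counts that did not overlap between the genotypes. Npm3-ps1 (chr6:85076192-85076719 in GRCm38, plus strand, 528 bases) had 3.42, 5.30 and 5.07 normalized counts in WT SP and 41.9, 49.3 and 37.4 in Δβ SP. In BM it had 1.98, 1.13 and 5.04 in WT and 37.0, 43.2 and 31.1 in Δβ. All WT values lay below the mean that the filter asks for, so the gene passed it through the Δβ libraries alone. Every Δβ library was far above every WT library, with a log2 fold change of 2.98 ± 0.43 in SP and 3.49 ± 0.43 in BM and adjusted p of 0.0497 and 0.0152 in limma. The adjusted p was 0.0407 and 0.0241 in edgeR and 1.65e-06 and 4.18e-06 in DESeq2. The direction held in every alternative run, and the call did not. With the replicate number as a block the adjusted p of limma was 0.0757 in SP and 0.0544 in BM. With only the 6 libraries of the comparison it was 0.172 and 0.224, and with no filter on low values 0.0552 and 0.0248. Same-numbered Δβ SP and Δβ BM libraries deviated together, so neither organ is an independent check of the other. Leaving out 1 library at a time, the call was lost in SP for 9 of the 12 libraries (all except WT SP replicate 3 and WT BM replicates 2 and 3), with adjusted p of 0.00942 to 0.186 and log2 fold changes of 2.82 to 3.07. In BM it was lost for 5 of the 12 (WT BM replicates 1 and 2 and each Δβ BM library), with adjusted p of 0.0141 to 0.117 and log2 fold changes of 3.15 to 3.91. Npm3 itself, on chromosome 19, had 250.7, 268 and 490.2 in WT SP, 232, 469 and 312 in Δβ SP, 398, 368 and 327 in WT BM and 200.05, 335 and 404 in Δβ BM, and overlapped between the genotypes in both organs. Of the 479 runs of 50 bases in the pseudogene, 268 (55.9%) are also found in Npm3, so reads of the pair can be told apart only over the rest, and how much the shared stretches added to the count of Npm3-ps1 was not tested.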

How the data were processed

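Per the labels, the authors used FastQC, STAR, featureCounts and DESeq2 on GRCm38 (mm10); settings and versions are not given in the sources used here. They deposited a signal value for each of 24454 genes, a read count divided by 1 size factor per library. All values were whole multiples of 1 read within 0.01, so whole reads were recovered. The 6 columns of other samples were not used. limma (3.58.1) was fitted to log2(normalized count + 1) of the 11476 genes averaging 10 or more, with 4 group means, a variance trend and Benjamini-Hochberg adjustment at 0.05; this scale understates changes of low genes. edgeR (4.0.16) and DESeq2 (1.42.0) on the recovered reads and the settings named in the closing section were alternatives. In simulated data of the SP comparison with 200 of 11476 genes changed, limma recovered 182 at a log2 change of 2 and 87 at a log2 change of 1, with 6 and 5 false calls, where DESeq2 made 30 and 40. The changed genes were drawn from those with higher counts, and genes did not move together between the simulated libraries. Changes as small as those of the members were not simulated, so these counts do not give the power for the members. Same-numbered libraries of Δβ SP and Δβ BM deviated together (r across genes of 0.66, 0.61 and 0.63), which makes them pairs by the numbers in the labels and this check, and those of WT SP and WT BM did not (-0.01, -0.04 and -0.24). Annotation came from GENCODE release 21 and promoters from RefSeq (GRCm38). The members and gene lists were chosen with earlier results of these data known. Counts in each library are given for the 4 members with the smallest limma p in each of the 4 pairwise comparisons and for Npm1, Ncl, Fbl and Nop56; Rrp9, Npm3 and the members called without WT SP replicate 3 were singled out after their values were seen. Levels were not compared between genes.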

Additional observations from a re-analysis of the deposited data

How the results depend on the processing

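With all libraries, 0 members were called in any comparison under each alternative run: a pseudocount of 0.25 or of 4, filters at a mean of 50 or at none, TMM and quantile scaling, edgeR, DESeq2, only the libraries of the comparison, and the replicate blocks. The median of the members kept its sign under all of these, at 0.40 to 0.50 for genotype in SP and 0.02 to 0.05 in BM, -0.23 to -0.15 for organ in WT, 0.21 to 0.23 in Δβ, and 0.37 to 0.46 for the difference between the organs. The filters, the replicate blocks and the use of only the libraries of the comparison cannot change the fold change of a gene in this design. For these runs the kept sign was fixed in advance, and only the p-values could move. With the replicate block the medians were therefore 0.40, 0.02, -0.16, 0.21 and 0.37, as in the main fit. The smallest adjusted p of a member in SP was 0.203 in limma with this block, while 2 of all genes tested were called in SP and 5 in BM, beside 12 and 8 without it. Blocking within the genotype for the organ comparisons changed no call. Leaving out 1 library at a time gave 0 to 7 members called for genotype in SP, where the 7 came without WT SP replicate 3, and 0 in the others. The medians then ran from 0.23 to 0.57 in SP, -0.15 to 0.22 in BM, -0.32 to -0.05 for organ in WT, -0.03 to 0.34 for organ in Δβ and 0.17 to 0.55 for the difference. Without both WT SP replicates 1 and 2, an alternative chosen after seeing the data, they were 0.055 for genotype in SP, 0.14 for organ in WT and 0.067 for the difference. Npm3-ps1 kept its direction in all settings in which it was tested (a mean of 50 removes it). With all libraries its adjusted p ran from 1.65e-06 to 0.172 in SP, above 0.05 in 5 of 9 settings, and from 4.18e-06 to 0.224 in BM, above it in 2 of 9. Among the named members, signs turned as follows, all of them without a call. In BM, Ncl turned to 0.033 in edgeR and 0.029 in DESeq2. Over the libraries left out in BM, Fbl ran from -1.36 to 0.30, Npm1 from -0.016 to 0.21, Ncl from -0.22 to 0.30 and Nop56 from -0.072 to 0.24. For organ in WT, Ncl ran from -0.32 to 0.00220 and Nop56 from -0.29 to 0.084. For organ in Δβ, Gar1 ran from -0.021 to 1.19, Ncl from -0.060 to 0.46 and Fbl from -0.12 to 1.53. The cause of these turns and of the change in calls was not tested.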
